A study of Homo sapiens with 11 samples.

Results

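The transcription factor p53 and the genes it switches on were followed in cells of the human line MOLM-13, an acute myeloid leukemia that carries a KMT2A fusion. The gene set held 34 textbook p53 targets, chosen by symbol, of the 38557 genes in the joined count table, and all 34 had a row there. The set was chosen with earlier results of these data known. Here, 4 libraries came from cells kept with the solvent DMSO, 4 from cells given the Menin inhibitor MI-503 at 1 µM, and 3 from cells given MI-503 at 1 µM plus PR-957 (ONX-0914, an inhibitor of the immunoproteasome subunit PSMB8) at 100 nM. The last group is called the combination, and its replicates carry the numbers 1, 2 and 4. Exposure lasted 72 h in every group, all groups are the same cell line, and no library with PR-957 alone was analysed here. Nothing in the labels says whether replicates of a group were separate cultures, so p-values measure the spread between these libraries, which may be technical.

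p53 is kept scarce in unstressed cells by MDM2, a ubiquitin ligase that marks it for the proteasome and whose own gene p53 activates, which closes a feedback loop. Stress such as DNA damage releases p53, which then binds DNA as a tetramer and raises genes that stop the cell cycle, prime the cell for death, repair DNA, adjust metabolism or switch p53 off again. In acute myeloid leukemia the pathway is often intact and held down through MDM2 and MDM4. The 34 genes were therefore read in 5 role groups: 6 for feedback and p53 control, 5 for cell cycle arrest, 10 for cell death, 4 for DNA repair and nucleotide supply, and 9 for metabolism, redox, autophagy and others.

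The libraries held between 18891243 and 41153974 counted fragments. Levels are in CPM, counts scaled to the library total with edgeR's TMM factors, and changes are log2 fold changes with their standard error (SE). A gene was called higher or lower at an adjusted p under 0.05 in edgeR's quasi-likelihood test over 14683 genes. Combination replicate 1 stood apart from its group: the chi-square per degree of freedom between its counts and those of replicates 2 and 4 was 12.9 and 21.6, against 3.27 between replicates 2 and 4 and 1.51 to 4.28 between the replicates of the other groups. Replicate 1 is also the deepest library, and this measure grows with depth. Of 7 AML and myeloid markers all passed the filter on low counts, whereas CD3E (T cells), HBB (erythroid cells) and EPCAM (epithelium) did not. The data are from bulk RNA, in which fewer cells with a transcript and less of it per cell cannot be told apart.

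Of the 34 targets 33 passed the filter. Under MI-503 alone the set split evenly, with 9 members higher and 9 lower than DMSO, where 22.0% and 29.3% of all tested genes were called in these directions. With PR-957 added, 15 members stood higher than under MI-503 and 3 lower, where 23.6% and 23.8% of all tested genes were called, and all 5 arrest genes were among the 15, 2 of them (PLK2 and PLK3) with calls that rested on single libraries. TP53INP1, a stress protein that promotes death and autophagy, was the farthest from DMSO in the combination, at 4.93-fold, followed by BTG2, an antiproliferative cofactor of mRNA decay, at 3.1-fold, the lysosomal enzyme FUCA1 at 2.86-fold and GADD45A, a damage-induced arrest gene, at 2.68-fold. CDKN1A, which encodes the cell cycle inhibitor p21, fell under MI-503 and rose when PR-957 was added. Of 12 tested p53 targets outside the set, 2 were higher and 5 lower in the combination than under MI-503. The member that did not pass was SPATA18, a gene of mitochondrial quality control, which had 1 fragment in MI-503 replicate 1, 1 in combination replicate 4 and 0 in the other 9 libraries, where 0 still allows up to 0.159 CPM at the lowest depth (3 fragments, counting error only).

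**Figure D1:**
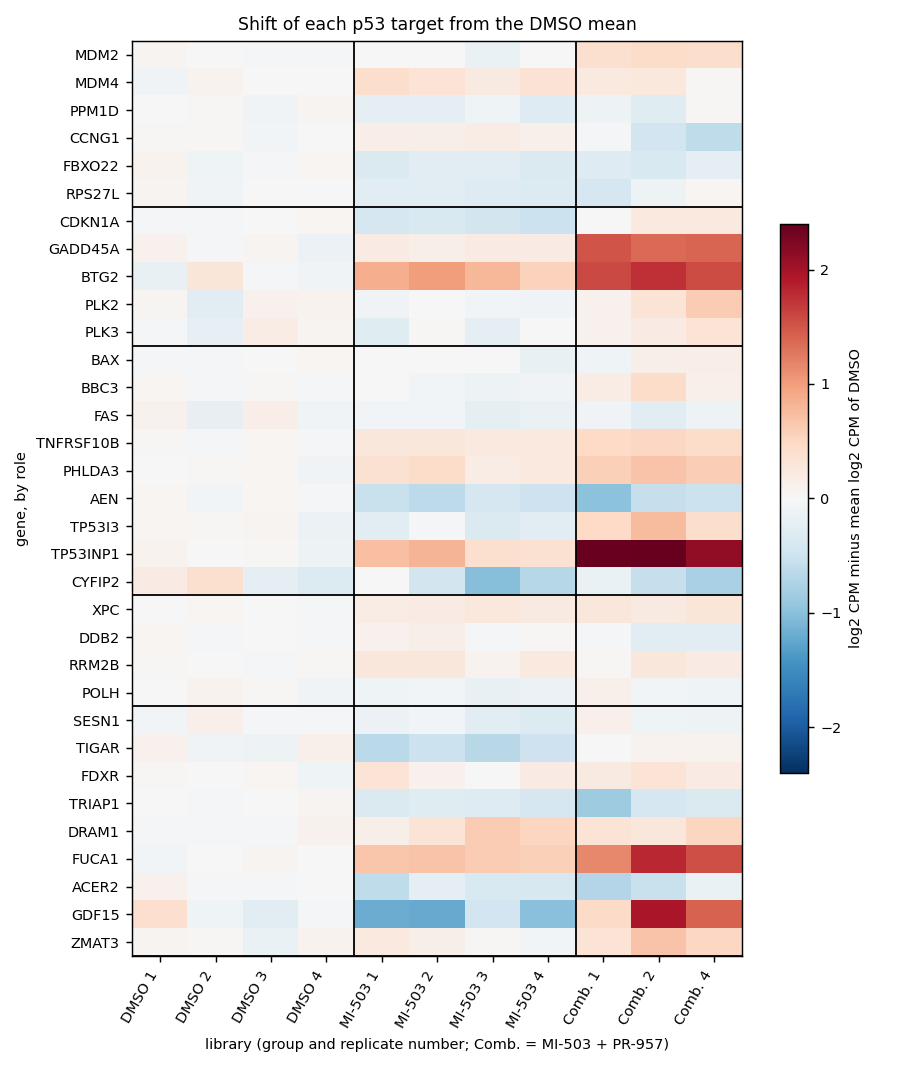
Shift of each of the 33 tested targets in each library, as its log2 CPM minus the mean log2 CPM of the 4 DMSO libraries, with genes in rows (black lines part the role groups, in the order given in the text) and libraries in columns. TP53INP1, BTG2, FUCA1 and GADD45A are red in all 3 combination libraries, CDKN1A and TIGAR are blue in the 4 MI-503 libraries, and AEN and TRIAP1 are blue in all 7 treated libraries.

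Levels differed widely among the targets before any drug. Scaled per kilobase of exon, so that genes of different length can be set side by side, BAX (a pore-forming death protein of the mitochondrion) had the highest level in DMSO, at 57.4 ± 1.6 CPM per kb (SD, n = 4). CDKN1A at 51.1 ± 1.27 and TRIAP1 at 48.7 ± 1.74 CPM per kb came next, and their ranges of mean ± SD overlapped. TNFRSF10B (the death receptor DR5) at 28.9 ± 0.876 and CCNG1 at 27.5 ± 0.788 CPM per kb had overlapping ranges as well. The CCNG1 level is the less certain of these, since 38.1% of its exon bases are shared with other genes. The lowest were TP53INP1 at 0.64 ± 0.0379, CYFIP2 at 0.262 ± 0.0635 and GDF15 at 0.205 ± 0.048 CPM per kb. In the combination the order had changed, with GADD45A at 20.1 ± 1.13 CPM per kb (n = 3) above MDM2 at 10.4 ± 0.249, and BTG2 at 11 ± 0.835 overlapping MDM2. In DMSO, MDM2 at 7.8 ± 0.284 CPM per kb had overlapped GADD45A at 7.48 ± 0.547 and lain above BTG2 at 3.56 ± 0.525.

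**Figure D2:**
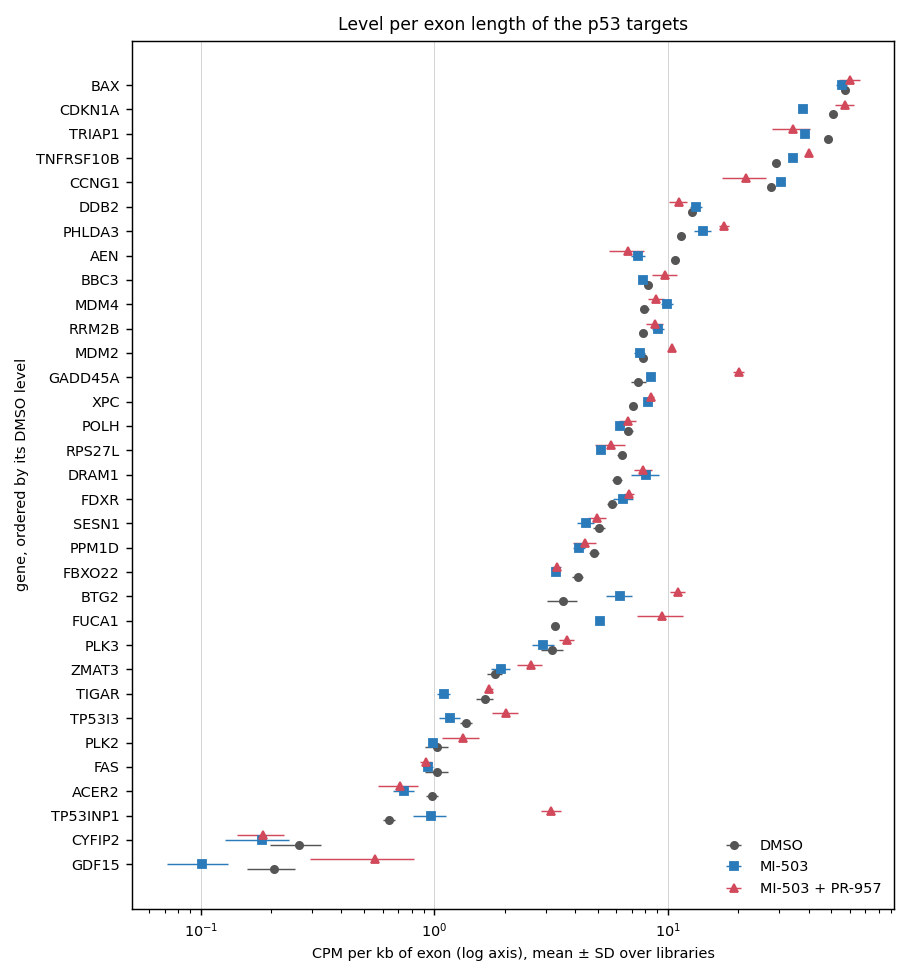
Level of the 33 tested targets in CPM per kilobase of exon on a log axis, as mean ± SD over the libraries of each group, ordered by the DMSO level. BAX is at the top with 57.4 CPM per kb in DMSO and GDF15 at the bottom with 0.205, and the combination lies far to the right of DMSO for TP53INP1, BTG2, FUCA1 and GADD45A.

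DNA near the start sites was read for the letters that p53 binds. Of the 34 targets 28 had an entry among the RefSeq promoter windows (GRCh38.p14, 300 bases each, 250 before to 50 after a start site), with 40 windows in all, while GADD45A, PHLDA3, TNFRSF10B, TP53INP1, RRM2B and FBXO22 had none. Each window was searched for the p53 consensus element, a 20-base pattern of 2 abutting 10-base copies that reads the same on both strands. At most 2 mismatches were found in 5 of the 40 windows (12.5%), which belong to 4 genes, against 0.649% of all 35116 windows. Those 4 promoters are printed 5′ to 3′ on the plus strand, with the best match in capitals, because the 4 genes went different ways in these libraries: MDM2 rose in the combination, DDB2 and AEN fell there, and FAS was not called.
MDM2: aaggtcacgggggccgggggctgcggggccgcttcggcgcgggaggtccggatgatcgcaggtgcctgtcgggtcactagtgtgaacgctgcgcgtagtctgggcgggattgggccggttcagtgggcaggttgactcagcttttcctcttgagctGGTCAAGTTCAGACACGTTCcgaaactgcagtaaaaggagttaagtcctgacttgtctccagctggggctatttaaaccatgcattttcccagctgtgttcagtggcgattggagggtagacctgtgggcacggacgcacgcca
DDB2: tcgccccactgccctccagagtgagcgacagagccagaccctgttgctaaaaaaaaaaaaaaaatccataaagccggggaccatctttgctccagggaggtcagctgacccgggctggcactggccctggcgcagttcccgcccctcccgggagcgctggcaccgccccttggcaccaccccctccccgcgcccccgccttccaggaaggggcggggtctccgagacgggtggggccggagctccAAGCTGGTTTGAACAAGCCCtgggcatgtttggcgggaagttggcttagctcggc
AEN: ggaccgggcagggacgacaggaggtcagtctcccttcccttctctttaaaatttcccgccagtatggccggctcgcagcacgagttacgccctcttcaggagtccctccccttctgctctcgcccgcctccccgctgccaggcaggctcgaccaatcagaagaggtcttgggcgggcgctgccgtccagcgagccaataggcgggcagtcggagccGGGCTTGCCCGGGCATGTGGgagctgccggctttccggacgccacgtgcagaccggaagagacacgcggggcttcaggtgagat
FAS: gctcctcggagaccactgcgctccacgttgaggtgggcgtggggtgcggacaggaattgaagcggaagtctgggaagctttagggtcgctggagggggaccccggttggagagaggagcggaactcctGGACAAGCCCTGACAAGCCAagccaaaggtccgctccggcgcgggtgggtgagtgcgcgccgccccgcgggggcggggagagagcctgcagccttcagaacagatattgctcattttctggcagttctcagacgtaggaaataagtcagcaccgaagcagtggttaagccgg
The MDM2 window lies at chr12:68808767-68809066 and its match, with 2 mismatches, at chr12:68808923-68808942, inside an intron of the counted gene model. A further MDM2 window that overlaps it holds the same match. DDB2, a sensor of ultraviolet damage, had the closest match of the set, with 1 mismatch, at chr11:47214969-47214988 in an exon (window chr11:47214724-47215023). The matches of AEN (chr15:88621306-88621325, window chr15:88621090-88621389) and FAS (chr10:88991309-88991328, window chr10:88991181-88991480) each had 2 mismatches and lay in introns. The other 24 genes with a window had between 3 and 6 mismatches at best, among them CDKN1A, FUCA1 and MDM4 with 5 and BTG2 with 4. DNA outside the windows, and copies with bases between them, were not searched. These counts therefore do not show that a gene lacks a p53 element. Nor do they test for an excess of such elements, since the genes were chosen as known p53 targets. The median best match had 5 mismatches among the member windows and among all windows. Binding of p53 was not measured in these libraries, and a match of letters is a description of the sequence only.

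MI-503 was compared with DMSO first, which asks how the Menin inhibitor alone moved the p53 targets. Of 33 tested members 9 (27.3%) were higher, against 22.0% of all tested genes, and 9 (27.3%) were lower, against 29.3% of all tested genes. The median log2 fold change of the members was -0.06, beside -0.0284 over all genes, so the set as a group lay close to the whole transcriptome. With upper-quartile in place of TMM scaling 12 members were higher and 7 lower, and the share of higher genes among all calls was 54.2% in place of 42.9%. The calls of PPM1D, SESN1 and ACER2 depended on single libraries. ACER2 had an edgeR adjusted p of 0.0134, and of 0.0509 without DMSO replicate 1. PPM1D had 0.0156, and 0.0549 without MI-503 replicate 4. SESN1 had 0.0317, and between 0.064 and 0.109 on removing replicate 2 of DMSO, 3 or 4 of MI-503, or 2 or 4 of the combination.

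The combination was next compared with the same DMSO libraries. Here 18 of 33 members (54.5%) were higher, against 31.7% of all tested genes, and 6 (18.2%) were lower, against 32.8%. The median of the members was 0.17, beside 0.0128 over all genes. Leaving out combination replicate 1 gave 20 higher and 7 lower, leaving out replicate 2 gave 12 and 5, and leaving out replicate 4 gave 15 and 7. The last comparison set the combination against MI-503 alone, which asks what PR-957 added. It gave 15 members higher (45.5%), against 23.6% of all tested genes, and 3 lower (9.09%), against 23.8%, with a median of 0.13 beside 0.00406 over all genes. Leaving out combination replicate 2 raised the lower count from 3 to 5. Because the comparisons share libraries (the DMSO libraries serve both comparisons with DMSO, and the MI-503 libraries serve both with MI-503), their values are given side by side and not correlated.

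**Figure D3:**
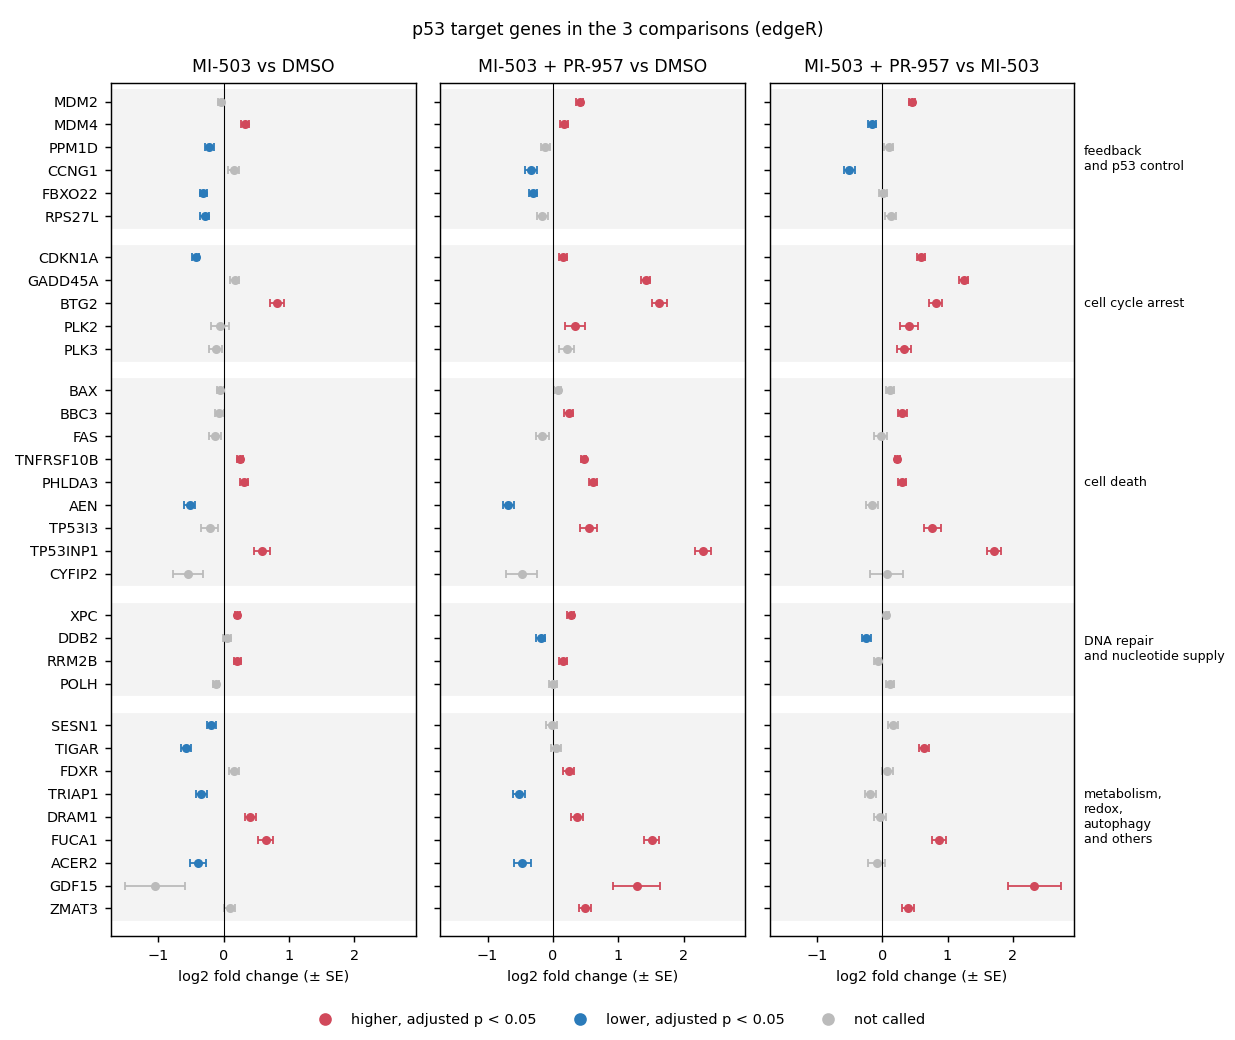
Log2 fold change ± SE (edgeR) of the 33 tested targets in the 3 comparisons, grouped by role, with red for higher, blue for lower and grey for not called at an adjusted p of 0.05. The arrest genes are all to the right of 0 in the right panel, whereas in the left panel members lie on both sides of 0 in every role group.

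Feedback and p53 control genes did not move together. Of the 6, 1 was higher (16.7%) and 3 lower (50%) under MI-503, against 22.0% and 29.3% of all tested genes. In the combination against DMSO 2 were higher and 2 lower (33.3% each), close to the 31.7% and 32.8% of all tested genes. In the combination against MI-503 1 was higher (16.7%) and 2 lower (33.3%), beside 23.6% and 23.8%. Counts this small moved with single libraries: without combination replicate 4 the lower genes were 4 against DMSO and 1 against MI-503, and without replicate 1 the higher genes were 2 under MI-503 and 2 against MI-503. MDM2, the ubiquitin ligase of p53, measured 105, 99.7, 97.3 and 97.1 CPM in the DMSO libraries, 99.9, 98.9, 89 and 99.2 with MI-503, and 130, 136 and 133 in the combination. The DMSO and MI-503 libraries overlapped, and all 3 combination libraries were above both. MDM2 was not called under MI-503 (log2 fold change -0.04, SE 0.05, edgeR adjusted p = 0.433) and rose 1.33-fold in the combination against DMSO (0.41, SE 0.05, edgeR adjusted p = 8.77e-07) and 1.37-fold against MI-503 (0.46, SE 0.05, edgeR adjusted p = 9.09e-07).

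MDM4, a relative of MDM2 that masks the activation domain of p53, went the other way when PR-957 was added. It measured 78.8, 88, 83.8 and 82.4 CPM in DMSO, 112, 104, 96.2 and 105 with MI-503, and 97.2, 98.8 and 84.9 in the combination. The MI-503 libraries were all above DMSO, and the combination overlapped both other groups. MDM4 rose 1.26-fold under MI-503 (0.33, SE 0.06, edgeR adjusted p = 0.000118), stood 1.13-fold above DMSO in the combination (0.17, SE 0.06, edgeR adjusted p = 0.0207), and fell in the combination against MI-503 (-0.16, SE 0.06, edgeR adjusted p = 0.0404). The last 2 calls of MDM4 rested on single libraries: against DMSO the adjusted p was 0.0668 without DMSO replicate 1 and 0.104 without combination replicate 2, and against MI-503 it was between 0.0514 and 0.125 on removing replicate 3 or 4 of DMSO, 1, 2 or 4 of MI-503, or 4 of the combination.

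FBXO22, a substrate receptor of a ubiquitin ligase that acts on methylated p53, measured 50.4, 44.3, 47.1 and 49.3 CPM in DMSO, 37.5, 39.5, 39.5 and 37.3 with MI-503, and 38.5, 37.2 and 40.6 in the combination. Every treated library was below every DMSO library. FBXO22 fell 1.24-fold under MI-503 (-0.31, SE 0.05, edgeR adjusted p = 7.1e-05) and 1.23-fold in the combination (-0.3, SE 0.06, edgeR adjusted p = 0.000128). Its counts cover only part of the gene, since 79.9% of its exon bases are shared with NRG4 and fragments there were not counted.

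The other 3 feedback genes each had their own pattern. CCNG1, which encodes cyclin G1, ran from 122 to 130 CPM in DMSO and from 139 to 143 with MI-503, and measured 123, 91.8 and 82.8 in the combination, where replicate 1 alone reached the DMSO range. CCNG1 fell in the combination against DMSO (-0.34, SE 0.09, edgeR adjusted p = 0.00292) and against MI-503 (-0.5, SE 0.09, edgeR adjusted p = 0.000235), and the value against DMSO was -0.52 without combination replicate 1. For CCNG1 38.1% of the exon bases are shared with LOC105377700 and NUDCD2. PPM1D, the phosphatase WIP1 that reverses damage signalling to p53, fell 1.16-fold under MI-503 (-0.22), and was called in the combination against DMSO only without combination replicate 4 (adjusted p = 0.0284). RPS27L, a ribosomal protein relative that binds MDM2, fell 1.23-fold under MI-503 (-0.29, edgeR adjusted p = 0.00268), and its combination libraries ran from 29.4 to 39.7 CPM across the ranges of both other groups. Without combination replicate 4 RPS27L was lower against DMSO (0.00273), and without replicate 1 it was higher against MI-503 (0.0027). CCNG1 under MI-503 was 0.15 (edgeR adjusted p = 0.136), and was called higher without combination replicate 1 (8.59e-05) or 4 (0.0134), with only the 2 groups in the fit (2.21e-05), with no filter (0.00348) and with upper-quartile factors (0.0489).

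Cell cycle arrest genes moved in 1 direction on adding PR-957. All 5 were higher in the combination than under MI-503 (median log2 fold change 0.59), against 23.6% of all tested genes. Of the 5, 4 (80%) were higher than in DMSO (median 0.34), against 31.7% of all tested genes. The count of 5 became 3 (CDKN1A, GADD45A and BTG2) without combination replicate 2 or 4 or MI-503 replicate 1 or 3, and the count of 4 became 2 (GADD45A and BTG2) without combination replicate 2 or 4. Under MI-503 alone 1 was higher, 1 lower (20% each) and 3 not called (median -0.06), against 22.0% and 29.3% of all tested genes. GADD45A made a further higher gene in 9 of 20 alternatives.

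CDKN1A (chr6:36676250-36687339 in hg38), whose product p21 blocks cyclin-dependent kinases, measured 141, 142, 146 and 149 CPM in DMSO, 109, 112, 107 and 101 with MI-503, and 145, 170 and 171 in the combination. The MI-503 libraries were below all others, and combination replicate 1 fell inside the DMSO range while replicates 2 and 4 were above it. CDKN1A fell 1.35-fold under MI-503 (-0.43, SE 0.05, edgeR adjusted p = 3.08e-06) and rose 1.51-fold from MI-503 to the combination (0.59, SE 0.06, edgeR adjusted p = 2.53e-07). Against DMSO the combination was 1.12-fold higher (0.16, SE 0.06, edgeR adjusted p = 0.0182). That last call was lost without combination replicate 2 (adjusted p = 0.106) or 4 (0.101), and the value was 0.26 without replicate 1 (2.58e-05). Of the CDKN1A exon bases 8.4% are shared with the antisense transcript DINOL, and strand was not used in counting.

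GADD45A (chr1:67685201-67688334), a small protein that binds PCNA and stress kinases, measured 10.8, 9.83, 10.6 and 9.21 CPM in DMSO, 11.6, 11.2, 11.5 and 11.5 with MI-503, and 28.9, 25.9 and 26.6 in the combination. All 3 combination libraries were far above every other library. GADD45A rose 2.68-fold against DMSO (1.42, SE 0.07, edgeR adjusted p = 4.15e-11) and 2.38-fold against MI-503 (1.25, SE 0.07, edgeR adjusted p = 5.4e-10). Under MI-503 alone the groups did not overlap, but the value of 0.17 (SE 0.07) missed the threshold, with an edgeR adjusted p of 0.0545. It passed in 9 of 20 alternatives, among them RLE factors (0.0256), upper-quartile factors (0.0122) and leaving out DMSO replicate 1 (0.0369) or any 1 combination library (0.0118 to 0.022).

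BTG2 (chr1:203305519-203309602) measured 8.47, 11.8, 9.49 and 9.11 CPM in DMSO, 17.6, 19.2, 16.8 and 14.2 with MI-503, and 28.9, 32.7 and 28.6 in the combination. The 3 groups formed 3 separate steps with no overlap. BTG2 rose 1.76-fold under MI-503 (0.82, SE 0.11, edgeR adjusted p = 6.34e-06) and again 1.76-fold from MI-503 to the combination (0.82, SE 0.1, edgeR adjusted p = 5.35e-06), which placed it 3.1-fold above DMSO (1.63, SE 0.11, edgeR adjusted p = 8.31e-10).

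PLK2 and PLK3, stress-responsive polo-like kinases, were low and less certain. PLK2 ran from 2.44 to 3.13 CPM in DMSO, from 2.73 to 2.94 with MI-503 and from 3.12 to 4.46 in the combination. It was higher in the combination against DMSO (0.34, SE 0.15, edgeR adjusted p = 0.0484) and against MI-503 (0.41, SE 0.14, edgeR adjusted p = 0.029). The call against DMSO was lost when any library other than combination replicate 1 was left out (adjusted p between 0.0538 and 0.291). Against MI-503 it was lost on removing replicate 1, 3 or 4 of MI-503, or 2 or 4 of the combination (0.055 to 0.266), and without replicate 4 of the combination the values were 0.19 and 0.21. PLK3 was called higher against MI-503 (0.33, SE 0.11, edgeR adjusted p = 0.0174), while against DMSO the value was 0.21 (0.099, and 0.0304 with upper-quartile factors or 0.0322 without combination replicate 1). PLK3 lost its call against MI-503 on removing replicate 1 or 3 of MI-503, or 2 or 4 of the combination (0.0509 to 0.123).

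**Figure D4:**
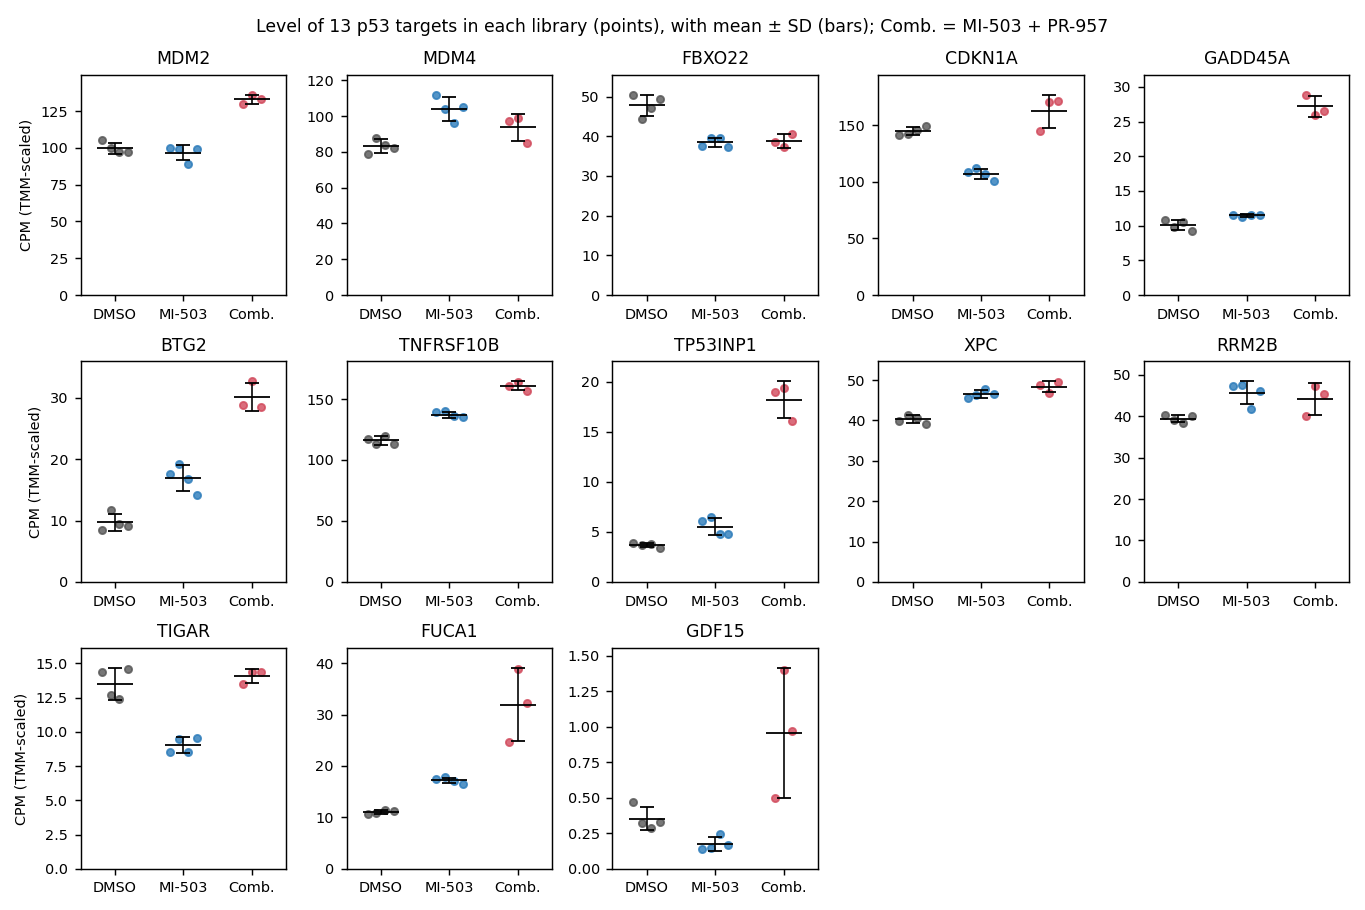
Level in TMM-scaled CPM of 13 targets in each library (points) with the group mean ± SD (bars), each panel on its own axis from 0, for 4 DMSO, 4 MI-503 and 3 combination libraries. BTG2, TNFRSF10B, TP53INP1 and FUCA1 form 3 steps without overlap, and CDKN1A and TIGAR dip in the MI-503 libraries.

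Cell death genes rose in part. Of 9 tested, 3 were higher (33.3%) and 1 lower (11.1%) under MI-503 (median -0.07), against 22.0% and 29.3% of all tested genes. In the combination against DMSO 5 were higher (55.6%) and 1 lower (11.1%, median 0.24), beside 31.7% and 32.8%. In the combination against MI-503 5 were higher (55.6%) and 0 lower (median 0.23), beside 23.6% and 23.8%. In the last comparison 0 of the 9 were lower at an unadjusted edgeR p under 0.05, and DESeq2 and limma-voom called 0 lower, but AEN (-0.16, edgeR adjusted p = 0.146) was called lower without combination replicate 2 (0.049) or 4 (-0.3, 0.0137). CYFIP2 made a further lower gene under MI-503 without DMSO replicate 4 or MI-503 replicate 1, and in the combination against DMSO without combination replicate 1.

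TP53INP1 (chr8:94925972-94949378) measured 3.88, 3.68, 3.75 and 3.37 CPM in DMSO, 6.06, 6.48, 4.79 and 4.75 with MI-503, and 19, 19.4 and 16.1 in the combination. No MI-503 library reached down to DMSO, and the lowest combination library was far above the highest MI-503 library. TP53INP1 rose 1.51-fold under MI-503 (0.59, SE 0.12, edgeR adjusted p = 0.000704), 3.27-fold from MI-503 to the combination (1.71, SE 0.11, edgeR adjusted p = 2.97e-09) and 4.93-fold from DMSO to the combination (2.3, SE 0.12, edgeR adjusted p = 4.65e-11).

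TNFRSF10B, the TRAIL receptor DR5, made smaller and very even steps. It measured 117, 113, 120 and 113 CPM in DMSO, 139, 140, 136 and 135 with MI-503, and 161, 164 and 157 in the combination, with no overlap between groups. The rise was 1.19-fold under MI-503 (0.25, SE 0.04, edgeR adjusted p = 3.16e-05) and 1.39-fold in the combination against DMSO (0.47, SE 0.04, edgeR adjusted p = 1.61e-08), with 1.17-fold between the treated groups (0.23, SE 0.04, edgeR adjusted p = 0.000181). PHLDA3, which blocks the survival kinase AKT, followed the same steps, with 30.5 to 33.4, 36.7 to 44 and 47.9 to 52.2 CPM and rises of 1.24-fold and then 1.23-fold. BTG2, TNFRSF10B, PHLDA3, TP53INP1 and FUCA1 were the 5 members called higher in all 3 comparisons. How many of all tested genes had that pattern was not counted.

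BBC3 and TP53I3 were not called under MI-503 and were higher in the combination than in either other group. BBC3, which encodes the death trigger PUMA, ran from 18.9 to 20 CPM in DMSO, from 17.9 to 19.5 with MI-503 and from 21.2 to 26.5 in the combination (0.24, SE 0.07, edgeR adjusted p = 0.00865 against DMSO; 0.31, SE 0.07, 0.00248 against MI-503). Without combination replicate 2, its highest library, the BBC3 values were 0.15 (adjusted p = 0.0669) and 0.17 (0.0429). TP53I3, a quinone oxidoreductase linked to oxidative death, rose 1.47-fold against DMSO (0.55, SE 0.13, edgeR adjusted p = 0.00102) and 1.7-fold against MI-503 (0.77, SE 0.13, edgeR adjusted p = 0.000101), at 4.76 to 6.02 CPM in the combination.

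AEN, a nuclease that degrades DNA in dying cells, moved against the other called death genes. It ran from 49.8 to 53.6 CPM in DMSO, from 33.6 to 39.3 with MI-503 and from 26.3 to 36.5 in the combination, so that no treated library reached DMSO. AEN fell 1.43-fold under MI-503 (-0.52, SE 0.08, edgeR adjusted p = 5.26e-05) and 1.6-fold in the combination (-0.68, SE 0.09, edgeR adjusted p = 3.62e-06). BAX, the death receptor gene FAS and CYFIP2, an actin regulator, were called in no comparison with all libraries in. BAX stayed between 78.9 and 100 CPM over all 11 libraries, FAS between 8.18 and 10.9, and CYFIP2, with 22 to 71 fragments per library, between 0.908 and 2.44. Leaving out combination replicate 1 gave BAX values of 0.17 (adjusted p = 0.00483) against DMSO and 0.18 (0.0052) against MI-503, in place of 0.07 and 0.12.

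DNA repair and nucleotide supply genes moved by at most 0.27 on the log2 scale in any comparison. Of the 4, 2 were higher (50%) and 0 lower under MI-503 (median 0.13), against 22.0% and 29.3% of all tested genes. At an unadjusted edgeR p under 0.05 POLH was the 1 lower gene, and DESeq2 and limma-voom called 0 lower. In the combination against DMSO 2 were higher (50%) and 1 lower (25%, median 0.08), beside 31.7% and 32.8%. In the combination against MI-503 0 were higher and 1 lower (25%, median 0), beside 23.6% and 23.8%. There 0 were also higher at an unadjusted edgeR p under 0.05, by DESeq2 and by limma-voom. Against DMSO the count of higher genes was 1 (XPC) without replicate 2 or 3 of DMSO or 2 or 4 of the combination, and that of lower genes 0 without DMSO replicate 1 or combination replicate 2 or 4. XPC, which finds DNA lesions for excision repair, measured 39.9, 41.4, 40.6 and 39.1 CPM in DMSO, 45.5, 46.3, 47.9 and 46.6 with MI-503, and 48.8, 46.8 and 49.4 in the combination. Both treated groups were above DMSO and overlapped each other. XPC rose 1.16-fold under MI-503 (0.21, SE 0.04, edgeR adjusted p = 0.00057) and 1.2-fold in the combination (0.27, SE 0.05, edgeR adjusted p = 7.29e-05), and the step between them was 0.06 (SE 0.05, edgeR adjusted p = 0.338).

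RRM2B, a ribonucleotide reductase subunit that supplies nucleotides for repair, measured 40.2, 39.1, 38.4 and 40 CPM in DMSO, 47.4, 47.5, 41.8 and 46.2 with MI-503, and 40, 47.4 and 45.3 in the combination. MI-503 libraries were above DMSO, and combination replicate 1 lay inside the DMSO range. RRM2B rose 1.16-fold under MI-503 (0.21, SE 0.06, edgeR adjusted p = 0.00494) and 1.12-fold in the combination (0.16, SE 0.06, edgeR adjusted p = 0.0335). The latter call did not hold on removing replicate 2 or 3 of DMSO, or 2 or 4 of the combination (adjusted p between 0.0596 and 0.178), and the value was 0.25 without combination replicate 1. DDB2, whose promoter holds the closest match to the p53 element, ran from 23.1 to 24.4 CPM in DMSO, from 22.6 to 26 with MI-503 and from 19.5 to 22.7 in the combination. It was lower in the combination against DMSO (-0.19, SE 0.07, edgeR adjusted p = 0.026) and against MI-503 (-0.24, SE 0.07, edgeR adjusted p = 0.00859), and the first of these was lost without DMSO replicate 1 or combination replicate 2 or 4 (0.0742 to 0.0904). POLH, a polymerase that copies damaged DNA, was called in no comparison with all libraries in, and was lower under MI-503 without DMSO replicate 4 (adjusted p = 0.0475).

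The last group, of metabolism, redox, autophagy and others, held 2 lysosomal genes that rose under MI-503 and 4 genes that fell, 1 of which, TIGAR, lay inside the DMSO range in the combination. Of 9 tested, 2 were higher (22.2%) and 4 lower (44.4%) under MI-503 (median -0.19), against 22.0% and 29.3% of all tested genes. In the combination against DMSO 5 were higher (55.6%) and 2 lower (22.2%, median 0.24), beside 31.7% and 32.8%. In the combination against MI-503 4 were higher (44.4%) and 0 lower (median 0.17), beside 23.6% and 23.8%. Of the 9, 0 were lower in that comparison at an unadjusted edgeR p under 0.05, by DESeq2 or by limma-voom, but TRIAP1 (-0.18, edgeR adjusted p = 0.0961) was called lower with no filter (0.021) and without combination replicate 2 (0.0339) or 4 (-0.33, 0.00532).

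FUCA1 (chr1:23845077-23868369), a lysosomal enzyme that removes fucose, measured 10.6, 10.9, 11.5 and 11.2 CPM in DMSO, 17.5, 17.8, 17 and 16.5 with MI-503, and 24.6, 38.8 and 32.3 in the combination. The groups did not overlap, and the combination libraries were spread far wider than the others. FUCA1 rose 1.56-fold under MI-503 (0.64, SE 0.11, edgeR adjusted p = 0.00012), 1.83-fold from MI-503 to the combination (0.87, SE 0.11, edgeR adjusted p = 4.85e-06) and 2.86-fold in all (1.51, SE 0.11, edgeR adjusted p = 3.56e-09). DRAM1, a lysosomal membrane protein needed for p53-driven autophagy, rose 1.33-fold under MI-503 (0.41, SE 0.09, edgeR adjusted p = 0.000737) and 1.3-fold in the combination (0.37, SE 0.09, edgeR adjusted p = 0.0018), and the treated groups overlapped.

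TIGAR, a phosphatase that lowers glycolytic flux, measured 14.4, 12.7, 12.4 and 14.6 CPM in DMSO, 8.56, 9.47, 8.51 and 9.58 with MI-503, and 13.5, 14.4 and 14.4 in the combination. The MI-503 libraries lay below all others, and the combination lay inside the DMSO range. TIGAR fell 1.5-fold under MI-503 (-0.58, SE 0.08, edgeR adjusted p = 1.17e-05) and rose 1.55-fold from MI-503 to the combination (0.64, SE 0.08, edgeR adjusted p = 1.04e-05). Between the combination and DMSO it differed by 0.05 (SE 0.08, edgeR adjusted p = 0.589). MDM4, CDKN1A and TIGAR were the 3 members called in opposite directions in different comparisons, and opposite calls were not counted over all tested genes.

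GDF15, a secreted stress cytokine, was near the limit of detection, with 3 to 28 fragments per library. It measured 0.473, 0.322, 0.285 and 0.332 CPM in DMSO, 0.139, 0.145, 0.248 and 0.164 with MI-503, and 0.496, 1.4 and 0.967 in the combination, and the groups did not overlap. The fitted rise was 2.43-fold against DMSO (1.28, SE 0.36, edgeR adjusted p = 0.00457) and 5.03-fold against MI-503 (2.33, SE 0.4, edgeR adjusted p = 0.000147), and the change under MI-503 (-1.05, SE 0.46) had an edgeR adjusted p of 0.0669. These were the largest SEs among the members. The change under MI-503 was called without combination replicate 1 (0.0348).

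ZMAT3, an RNA-binding regulator of splicing, rose 1.4-fold in the combination against DMSO (0.49, SE 0.09, edgeR adjusted p = 0.000137) and 1.32-fold against MI-503 (0.4, SE 0.09, edgeR adjusted p = 0.00128). FDXR, a mitochondrial electron carrier enzyme, was called higher in the combination against DMSO (0.24, SE 0.08, edgeR adjusted p = 0.0165), with 0.052 without DMSO replicate 4 and 0.0642 without combination replicate 2. Under MI-503 FDXR stood at 0.16 (edgeR adjusted p = 0.0993) and passed in 7 of 20 alternatives, among them upper-quartile factors (0.0285), only the 2 groups (0.0243) and leaving out MI-503 replicate 3 (0.0354) or any 1 combination library (0.024 to 0.0459). TRIAP1, which moves lipids inside mitochondria and restrains death, fell 1.27-fold under MI-503 (-0.34) and 1.44-fold in the combination (-0.52), with the 2 treated groups at 42.3 to 45.7 and 31.1 to 44.3 CPM. ACER2, a ceramidase of the Golgi, fell 1.31-fold under MI-503 (-0.39) and 1.38-fold in the combination (-0.47), which was -0.31 (adjusted p = 0.0492) without combination replicate 1. SESN1, a sestrin that restrains the growth kinase mTORC1, was lower under MI-503 (-0.19), and was higher in the combination against MI-503 only without MI-503 replicate 2 (adjusted p = 0.0341), with libraries at 29.8 to 33.8 CPM in DMSO, 24.8 to 29.6 with MI-503 and 28.6 to 33.6 in the combination.

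Beside the members, 4 further lists of the pathway were counted. As above, the shares of all tested genes called higher and lower were 22.0% and 29.3% under MI-503, 31.7% and 32.8% in the combination against DMSO, and 23.6% and 23.8% against MI-503. The list of other p53 targets held 20 genes, of which 12 passed the filter. Of these 4 were higher (33.3%) and 6 lower (50%) under MI-503, 3 higher (25%) and 5 lower (41.7%) in the combination against DMSO, and 2 higher (16.7%) and 5 lower (41.7%) against MI-503 (medians -0.15, -0.02 and -0.05). EI24, a protein of the endoplasmic reticulum, fell by 0.49 under MI-503 and by 0.98 in the combination on the log2 scale (edgeR adjusted p = 6.23e-06 and 2.61e-09). NINJ1, which ruptures the membrane of dying cells, rose by 0.42 and 0.68 (0.000173 and 9.13e-07), and APAF1, the core of the apoptosome, by 0.47 and 0.28 (2.7e-07 and 8.35e-05), although 40% of its exon bases are shared with ANKS1B.

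Upstream kinases and partners of p53 were mostly lower under MI-503, with 9 of 15 tested genes (60%) lower and 2 (13.3%) higher (median -0.14), against 29.3% and 22.0% of all tested genes. In the combination 5 (33.3%) were lower and 3 (20%) higher against DMSO (median -0.1), and 3 (20%) lower and 5 (33.3%) higher against MI-503 (median 0.09). HIPK2, a kinase that phosphorylates p53 in lethal damage, was the largest mover of the list, from 21.2 CPM in DMSO to 52.6 with MI-503 and 60.9 in the combination (log2 fold changes 1.31 and 1.52, edgeR adjusted p = 1.21e-10 and 1.1e-11). The checkpoint kinases fell, CHEK1 by 0.48 and 0.92 (9.16e-07 and 4.68e-10) and CHEK2 by 0.34 and 0.56 (3.72e-05 and 1.5e-07).

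Cell cycle genes known to be repressed through p21 and the DREAM complex were lower throughout. All 15 fell under MI-503 (median -0.35), against 29.3% of all tested genes, and all 15 in the combination against DMSO (median -0.82), against 32.8%. From MI-503 to the combination 14 fell further (median -0.43), against 23.8%, where CDC25C had a value of -0.22 (edgeR adjusted p = 0.0532). CDK1, the mitotic kinase, went from 139 CPM in DMSO to 102 with MI-503 and 66.9 in the combination, CCNA2 (cyclin A2) from 143 to 105 and 74.2, and RAD54L, a recombination repair helicase, from 54.6 to 49 and 32.3. CDKN1A was at its lowest under MI-503 while these genes were already below DMSO, and was higher in the combination, where they were lower still. Whether p21 had a part in their level was not tested.

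ATF4 and CHOP stress genes, which answer amino acid and unfolded protein stress, split. Under MI-503 1 of 10 was higher (10%) and 6 lower (60%, median -0.46), in the combination 3 were higher (30%) and 7 lower (70%) against DMSO (median -0.56), and 5 were higher (50%) and 4 lower (40%) against MI-503 (median 0.08). PPP1R15A (GADD34) rose from 19.7 CPM in DMSO and 20.1 with MI-503 to 45.3 in the combination (1.2 against DMSO, edgeR adjusted p = 1.54e-10), while STC2 fell from 15.5 to 6.12 and 3.71 (-2.05, 2.82e-09) and CHAC1 from 7.5 to 2.63 and 1.79 (-2.09, 1.59e-08). The part of these stress genes in the rise of GADD45A, BTG2 and TP53INP1 was not tested.

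**Figure D5:**
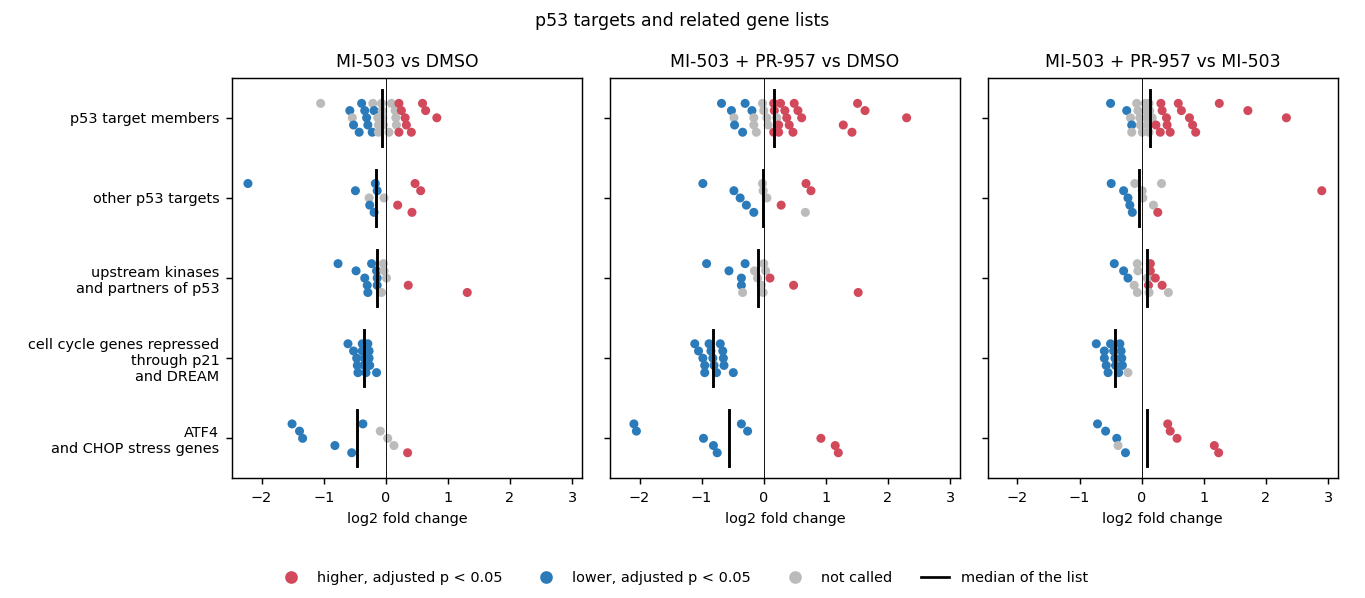
Log2 fold changes of the 33 tested p53 targets and of the tested genes of 4 related lists in the 3 comparisons, 1 point per gene with a black bar at the median of the list, in red, blue or grey for higher, lower or not called. The DREAM genes lie left of 0 in all panels, and the members tilt right in the middle and right panels (medians 0.17 and 0.13).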

How the data were processed

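RNA was sequenced in 11 libraries of MOLM-13 cells, 4 with DMSO, 4 with MI-503 and 3 with MI-503 plus PR-957, grouped by the labels. The deposited tables hold, for each gene and library, raw fragment counts that the authors had not normalized. Per the submitters' processing notes, Trimmomatic 0.39, STAR 2.7.10a and featureCounts 2.0.1 were used with hg38. Per the file headers, featureCounts ran on exons of the RefSeq annotation, on read pairs, without strand and on filtered alignments (by a filter not given in the sources used here), and left out fragments that overlapped several genes or mapped to several places. This lowers the counts of genes that share exons with a neighbor. The joined table differed from the single tables in 0 cells. The deposited differential expression tables hold the authors' own fold changes (log2) and p-values from DESeq2 and were not used.

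Counts were tested in R 4.3.3 with edgeR 4.0.16 (quasi-likelihood, two-sided, Benjamini-Hochberg adjustment over 14683 genes kept by filterByExpr with a minimum count of 10 and a minimum total of 15). All 11 libraries entered 1 model with TMM factors of 0.956 to 1.056, a biological coefficient of variation of 6.14% and 8 residual degrees of freedom. Each edgeR adjusted p in the text is from this test. Totals of 18891243 to 41153974 fragments set the precision of low genes. Level values are CPM as mean ± SD. Exon bases shared between genes were computed from the gene models in the file headers, and per-length levels used their exon length. The p53 element was searched in RefSeq promoter windows of GRCh38.p14. The test was tested on simulated data. Values in every library are given for MDM2, CDKN1A, the 2 members of each role group with the smallest adjusted p, members called in opposite directions and members called at 2-fold or more, and for each further list the 3 genes with the smallest adjusted p. The members, role groups and lists were chosen with earlier results of these data known. Some further lineage markers are not reported here. Alternatives were RLE and upper-quartile factors, no filter and a stricter filter (1 CPM in 3 libraries), DESeq2 1.42.0, limma-voom (limma 3.58.1), an adjusted p under 0.01, only the 2 groups compared, a replicate block and leaving out each library.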

Additional observations from a re-analysis of the deposited data

Results flagged for a closer look

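In 66 sets of 4 libraries (33 members in DMSO and in MI-503) the highest or lowest library was compared with its nearest neighbor by Dixon's ratio, and 6 exceeded its 95% critical value. Chance flags about 1 set in 20. In DMSO replicate 2, PLK2 lay low at 2.44 CPM against 3.04 to 3.13 (ratio 0.872) and SESN1 high at 33.8 against 29.8 to 30.3 (0.858). In DMSO replicate 4, TP53I3 lay low at 3.23 CPM against 3.63 to 3.7 (0.859) and DRAM1 high at 23.8 against 21.6 to 21.9 (0.863). MDM2 lay low in MI-503 replicate 3, at 89 CPM against 98.9 to 99.9 (0.916), and BAX low in MI-503 replicate 4, at 78.9 against 88.8 to 89 (0.981). The combination, with 3 libraries, is too small for this ratio.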

How the results depend on the processing

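Over the alternatives, 15 of 18 members called under MI-503 against DMSO, 17 of 24 in the combination against DMSO and 15 of 18 in the combination against MI-503 kept their call and direction in every setting that tested them (GDF15, among the last 2 counts, did not pass the stricter filter). Members not called at first were called in at least 1 setting 6, 5 and 5 times. Calls of PPM1D, SESN1, DDB2, RRM2B, PLK2 and MDM4 were also lost under at least 1 other scaling, filter or tool, and the cause was not tested. The median log2 fold change of the members under MI-503 (-0.06) was 0 with upper-quartile factors, -0.01 with the stricter filter, -0.01 with only the 2 groups, and -0.08 to -0.02 with libraries left out. In the combination against DMSO the median (0.17) was 0.24 with upper-quartile factors and 0.13 to 0.26 with libraries left out, the highest without combination replicate 1. Against MI-503 it (0.13) was 0.11 with the stricter filter and 0.12 to 0.19 with libraries left out, the highest without MI-503 replicate 1, and the count of lower members (3) was 2 to 5, the highest without combination replicate 2. Reversals touched values near 0 that were not called. MDM2 under MI-503 was 0.02 with upper-quartile factors and 0.01 with the stricter filter, BAX was 0.01 with upper-quartile factors, and SESN1 in the combination against DMSO was 0.05 and 0.01 in the same 2 settings and -0.09 to 0.02 with libraries left out. In the combination against MI-503, FBXO22 was -0.01 with DESeq2 and -0.06 to 0.03 with libraries left out, PPM1D -0.02 to 0.13, RPS27L -0.02 to 0.23, DRAM1 -0.15 to 0.04, ACER2 -0.29 to 0.03 and CYFIP2 -0.21 to 0.24. Without combination replicate 1, 0 of the edgeR calls were lost and 4, 3 and 2 members were gained in the 3 comparisons.

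Replicate numbers are shared between the groups, but residuals of same-numbered libraries correlated at -0.25 to 0.28, against -0.31 to 0.32 for different numbers, so the numbers were not taken as pairs. With the replicate block, 0, 2 and 0 calls were lost and 2, 1 and 0 gained in the 3 comparisons: PLK2 (adjusted p = 0.0627) and RRM2B (0.0754) were lost against DMSO in the combination, CYFIP2 was gained in 2 comparisons and GADD45A in 1, and CYFIP2 in the combination against MI-503 was -0.06. Counts of 3 to 28 fragments limit GDF15, and 0 or 1 fragment SPATA18.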

Other observations

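Among the partners of p53, 4 genes had the pattern of TIGAR, lower under MI-503, higher from MI-503 to the combination and not called between the combination and DMSO. They were singled out after their values were seen, and how many of all tested genes had this pattern was not counted. Over all tested genes 29.3% were lower under MI-503 and 23.6% higher from MI-503 to the combination. Both comparisons used the same MI-503 libraries. TP53BP1, a scaffold of DNA break repair, measured 49 CPM in DMSO, 39.7 with MI-503 and 49.7 in the combination (log2 fold changes -0.3 and 0.33, edgeR adjusted p = 0.000286 for both), although 26.2% of its exon bases are shared with TUBGCP4. TP53BP2, which steers p53 toward death genes, was at 104, 93.9 and 104 CPM (-0.14 and 0.14, edgeR adjusted p = 0.00771 and 0.0139). COP1, a ubiquitin ligase of p53, was at 70.4, 63.6 and 69.9 CPM (-0.15 and 0.14, edgeR adjusted p = 0.00576 and 0.0147). USP7, which removes ubiquitin from MDM2 and p53, was at 189, 171 and 184 CPM (-0.14 and 0.11, edgeR adjusted p = 0.00378 and 0.0398).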
